A study of Rattus norvegicus with 24 samples.

Results

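The comparison described here is the difference between 2 responses to glucose, that of cardiac fibroblasts taken from rats of 0-3 days and that of cardiac fibroblasts taken from rats of 10-13 weeks. It was measured by RNA sequencing in 12 of the 24 libraries of the series, all libraries of those ages having been taken, with 3 libraries in each of 4 groups. The cells were primary cultures kept in DMEM with serum and then given 5.5 mM glucose (normal, N) or 33 mM glucose (high, H) for 24 hours. The 4 groups were thus 0-3 days in normal glucose, 0-3 days in high glucose, 10-13 weeks in normal glucose and 10-13 weeks in high glucose, and no genotype, strain, sex or other agent is given in the labels. No group with an added sugar that cells do not take up was among them, so a response to glucose and a response to the higher osmolarity of the medium cannot be told apart.

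Cardiac fibroblasts make and remodel the collagen-rich matrix of the heart, sense stretch and hormones such as angiotensin II, and can turn into contractile myofibroblasts after injury. In the newborn rat heart these cells still divide and deposit matrix for a growing organ, whereas in the adult they are mostly quiescent until injured. High glucose is known to reach such cells through glucose-sensing transcription factors, through osmotic stress and through growth factor signalling, and it is widely used in culture as a model of the diabetic heart.

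A glucose effect is given below as the log2 fold change of high against normal glucose at 1 age, and the difference of effects as the effect at 0-3 days minus that at 10-13 weeks, so a positive value marks a gene whose response was higher in the cells of the youngest rats. Levels are CPM, counts scaled to the total of the library with TMM factors, and library values are listed in the order of the numbers 1, 2 and 3 that the labels give. A gene was called at an adjusted p under 0.05 in edgeR's quasi-likelihood test with Benjamini-Hochberg adjustment over 13806 genes. When the libraries of a group were treated as independent, no gene was called for the difference of effects (0%), with 322 genes at an unadjusted p under 0.05, and DESeq2 also called 0 with 350 at that level. The same fit called 0 genes (0%) for the effect at 0-3 days and 1 gene (0.00724%) for the effect at 10-13 weeks. Libraries of the same number and age nevertheless deviated together from their group means, with correlations of 0.2 to 0.41. The labels do not say what a number marks. Correlations between libraries of different numbers were -0.25 to -0.07, but centring on group means pushes these below 0 when the same-number values are positive. With the number used as a pair within each age, 62 genes (0.449%) were called for the difference of effects, 28 (0.203%) with a higher effect and 34 (0.246%) with a lower effect at 0-3 days. With the pair as a random effect at its estimated correlation of 0.55, limma called 2 genes, and the paired edgeR fit called 18 without pair 3 of 10-13 weeks. All calls named below come from the paired edgeR fit of the 24 libraries unless another fit is named.

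At 0-3 days 148 genes (1.07%) were called, of which 76 (0.55%) rose and 72 (0.522%) fell in high glucose. At 10-13 weeks 1067 genes (7.73%) were called, of which 586 (4.24%) rose and 481 (3.48%) fell. The difference between these counts was not tested, and leaving out a single pair moved them to between 16 and 281 at 0-3 days and between 151 and 1422 at 10-13 weeks. Without pair 3 of 10-13 weeks their order turned, with 164 genes at 0-3 days and 151 at 10-13 weeks. Both ages shared 60 called genes, 40.5% of the 148 and 5.62% of the 1067, and 51 of them changed in the same direction. Across all 13806 genes the effects at the 2 ages, which share no library, had a Pearson correlation of 0.15 and a Spearman correlation of 0.28. Over the 11403 genes with a mean log2 CPM over 1 in the 24 libraries, the Pearson correlation was 0.34.

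Of the 62 genes, 48 (77.4%) had an effect larger in size at 10-13 weeks, against 57.9% of all genes. Among them 54 were called at 10-13 weeks (7.73% of all genes) and 17 at 0-3 days (1.07% of all genes). Choosing genes by the difference of the 2 effects raises these counts and those of the classes that follow. For 29 genes the level rose at 10-13 weeks with no call at 0-3 days, and for 16 it fell at 10-13 weeks with no call at 0-3 days. A further 7 genes rose at 0-3 days and fell at 10-13 weeks, and 2 did the reverse. The effects were opposite in sign for 55 of the 62, against 38.4% of all genes, a share that choosing genes by their difference raises. The differences of the 3 pairs at one age did not overlap those at the other for any of the 62, against 16% of all genes. Choosing genes by a paired test of the same differences raises this share as well. The median size of the difference was 0.56 on the log2 scale, and 9 genes exceeded 1.

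**Figure D1:**
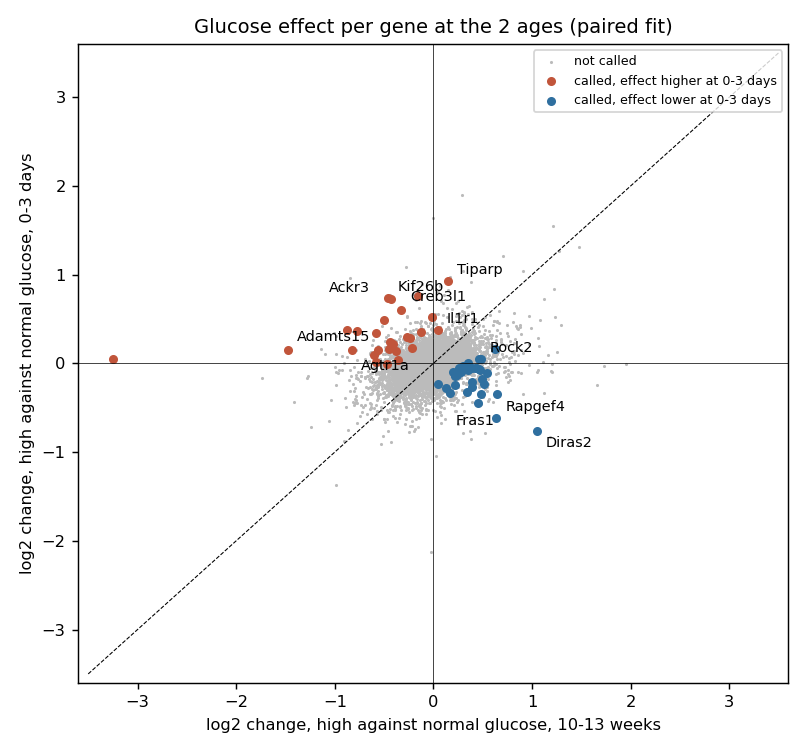
Glucose effect of each gene at 10-13 weeks (horizontal axis) against that at 0-3 days (vertical axis), both as log2 fold changes of high against normal glucose in the paired fit, for genes with a mean log2 CPM of at least 1. Red points are called genes with a higher effect at 0-3 days and blue points those with a lower effect; most of them lie away from the dashed line of equal effects in the upper left and lower right, and the red point near -3.25 is C2.

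The gene with the smallest adjusted p was Creb3l1 (chr3:80892435-80933283 in Rnor_6.0), which encodes a transcription factor that is held in the endoplasmic reticulum membrane and is needed for the secretion of collagen. At 0-3 days it stood at 86.3, 85.8 and 90.2 CPM in normal glucose and at 136, 141 and 120 CPM in high glucose. At 10-13 weeks it stood at 163, 123 and 101 CPM in normal glucose and at 120, 99.8 and 85.1 CPM in high glucose. Every high-glucose library was above every normal-glucose library at 0-3 days, whereas at 10-13 weeks each library was below its same-numbered partner and the groups overlapped. The effects were 0.60 ± 0.064 (SE) at 0-3 days and -0.33 ± 0.064 at 10-13 weeks, and their difference was 0.93 ± 0.090 (edgeR adjusted p = 3.64e-05). This gene and Rapgef4 were also the 2 called by limma with the pair as a random effect (adjusted p = 0.00179 and 0.0379).

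Several receptors and signalling proteins had a higher effect at 0-3 days. Agtr1a (chr17:35907108-35958077), the angiotensin II receptor through which the hormone drives fibroblast activation, stood at 62.3, 48.0 and 28.9 CPM in normal and 69.4, 53.2 and 32.1 CPM in high glucose at 0-3 days. At 10-13 weeks it went from 28.3, 14.6 and 43.0 CPM in normal to 18.3, 8.06 and 21.6 CPM in high glucose. The libraries of a group differed widely, but every pair at 10-13 weeks fell and every pair at 0-3 days was slightly higher in high glucose. Its effect was -0.83 ± 0.096 at 10-13 weeks (edgeR adjusted p = 0.000118) and 0.15 ± 0.085 at 0-3 days (0.444), a difference of 0.98 ± 0.13 (0.000928).

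Ackr3 (chr9:97355924-97367445), an atypical receptor that takes up the chemokine CXCL12, stood at 39.8, 45.3 and 38.9 CPM in normal and 61.8, 85.5 and 59.7 CPM in high glucose at 0-3 days. At 10-13 weeks the values were 86.0, 60.4 and 124 CPM in normal and 54.7, 55.5 and 86.5 CPM in high glucose. It rose at 0-3 days, with no overlap between the groups, and fell at 10-13 weeks, where the groups overlapped and pair 2 moved least. The difference of effects was 1.16 ± 0.14 (edgeR adjusted p = 0.00261). Jak2, the tyrosine kinase that carries signals from many cytokine receptors, went the same ways, with effects of 0.28 at 0-3 days and -0.24 at 10-13 weeks and a difference of 0.52 ± 0.078 (edgeR adjusted p = 0.00324).

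Il1r1, the signalling receptor for interleukin-1, was among the 5 genes that rose at 0-3 days with no call at 10-13 weeks. It stood at 301, 343 and 303 CPM in normal and 375, 464 and 393 CPM in high glucose at 0-3 days, so the groups did not overlap. At 10-13 weeks it stood at 373, 260 and 289 CPM in normal and 378, 265 and 309 CPM in high glucose, and each pair moved by less than the libraries of a group differed. The effects were 0.38 ± 0.041 and 0.05 ± 0.042, a difference of 0.33 ± 0.059 (edgeR adjusted p = 0.0103). Mnda, a member of a family of interferon-inducible nuclear proteins, had the same pattern, with effects of 0.53 and -0.01 and a difference of 0.54 ± 0.11 (edgeR adjusted p = 0.0265). That call was kept in 1 of the 6 fits that left out a pair.

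Adamts15 (chr8:31977001-32000378), a secreted metalloprotease that cleaves the proteoglycan versican, stood at 16.6, 10.9 and 13.2 CPM in normal and 5.74, 5.23 and 3.74 CPM in high glucose at 10-13 weeks. At 0-3 days it stood at 18.9, 17.5 and 11.3 CPM in normal and 23.6, 19.3 and 10.8 CPM in high glucose. The older groups did not overlap, and their effect of -1.48 ± 0.14 (edgeR adjusted p = 5.26e-05) had the smallest adjusted p of any gene at that age, whereas the younger groups overlapped, with an effect of 0.15 ± 0.12. The difference of effects was 1.62 ± 0.19 (edgeR adjusted p = 0.000387).

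Lum, or lumican, a small proteoglycan that controls the thickness of collagen fibrils, went from 145, 136 and 175 to 134, 123 and 133 CPM at 10-13 weeks and from 268, 218 and 136 to 298, 251 and 151 CPM at 0-3 days. Each pair was lower in high glucose at the older age, where the groups lay just apart, and higher at the younger age, where they overlapped. Only the older effect was called (-0.21, edgeR adjusted p = 0.0238), and the difference was 0.39 ± 0.078 (0.0258). The call for the difference was kept in 3 of the 6 fits that left out a pair. Lum is also 1 of the fibroblast markers used below.

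In the other direction lay Fras1 (chr14:14439082-14689554), a large basement membrane protein. It fell at 0-3 days, from 11.1, 17.5 and 22.2 to 9.26, 11.9 and 15.7 CPM, and rose at 10-13 weeks, from 23.6, 22.1 and 15.8 to 34.5, 26.1 and 23.2 CPM. Groups overlapped at both ages although every pair moved in the direction of its age. The effects were -0.45 ± 0.098 and 0.45 ± 0.090, a difference of -0.89 ± 0.13 (edgeR adjusted p = 0.00412). In the lists of collagens, other matrix glycoproteins and proteoglycans, and remodelling genes, Lum was the 1 gene called of 71 tested (1.41%, against 0.449% of all genes). Col1a1 and Col3a1, the main fibrillar collagen genes, had differences of 0.09 ± 0.066 and 0.00 ± 0.10.

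**Figure D2:**
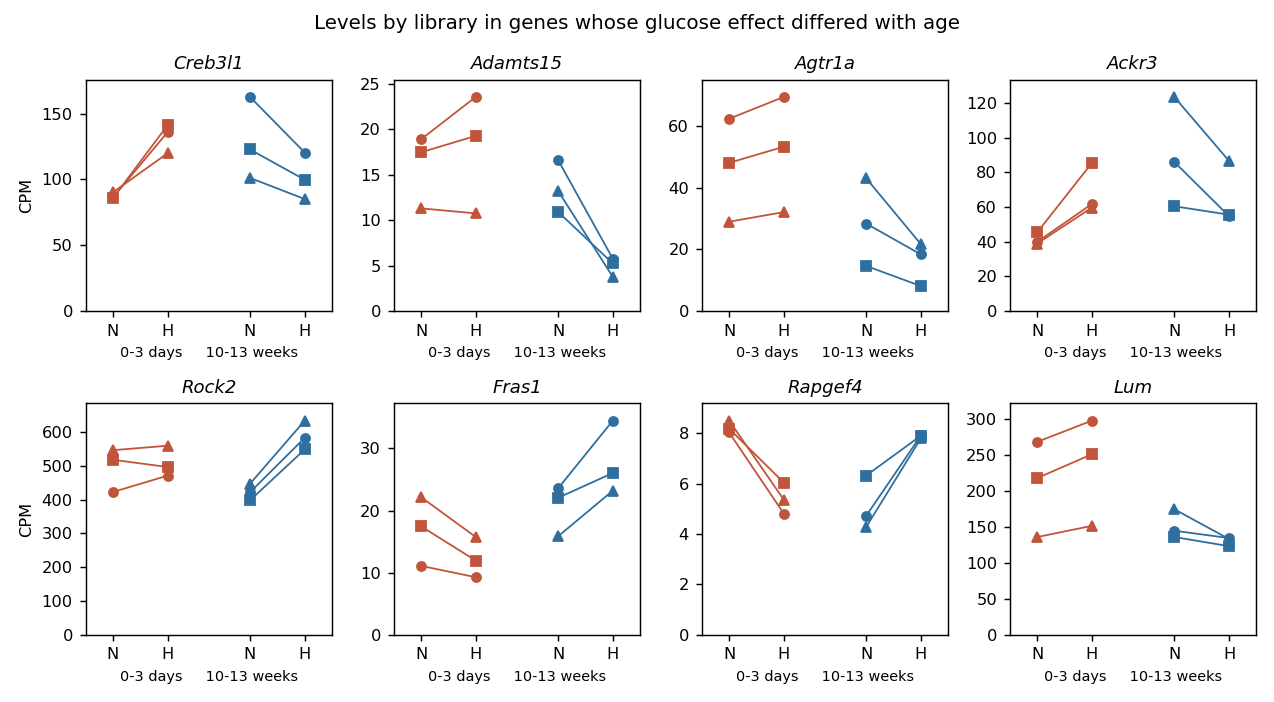
CPM of 8 genes called for the difference of effects in each of the 12 libraries, in normal (N) and high (H) glucose at 0-3 days (red) and 10-13 weeks (blue). Lines join libraries of the same number, and circles, squares and triangles mark numbers 1, 2 and 3; for Creb3l1 and Ackr3 the lines rise at 0-3 days and fall at 10-13 weeks, and for Fras1 and Rapgef4 they do the reverse.

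Some called genes act on the cytoskeleton, and they are given for that role. Rock2 (chr6:42180894-42289908), a kinase that promotes actin stress fibres and contraction, went from 422, 398 and 447 to 583, 549 and 634 CPM at 10-13 weeks. At 0-3 days it stood at 423, 518 and 546 CPM in normal and 471, 497 and 560 CPM in high glucose. The groups were apart at the older age and overlapped at the younger. Its effects were 0.48 ± 0.050 and 0.04 ± 0.050, a difference of -0.44 ± 0.071 (edgeR adjusted p = 0.00618).

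Arhgap29, a GTPase-activating protein, rose at 0-3 days (0.30) and fell at 10-13 weeks (-0.27), a difference of 0.57 ± 0.087 (edgeR adjusted p = 0.00412). Smtn, or smoothelin, which binds actin in contractile cells, rose at 10-13 weeks from 137, 131 and 122 to 170, 153 and 138 CPM and stood at 146, 145 and 131 against 139, 122 and 125 CPM at 0-3 days. Its difference of effects was -0.37 ± 0.072 (edgeR adjusted p = 0.0205). It was the 1 called gene of the 17 in the list of contractile genes, against 0.449% of all genes. The median difference of that list was -0.13, with 12 of 17 below 0. The call of Smtn was kept in 3 of the 6 fits that left out a pair. Acta2, the smooth muscle actin that defines myofibroblasts, had an effect of -0.02 at each age and a difference of 0.00 ± 0.091. The motor protein gene Myo1c, with a difference of -0.29 ± 0.057 (edgeR adjusted p = 0.0193), also rose at 10-13 weeks without a call at 0-3 days, as did Git1, which acts at focal adhesions (-0.33 ± 0.070, 0.0402). Without a pair, Myo1c stayed called in 2 of 6 fits and Git1 in 0 of 6, with adjusted p between 0.0668 and 0.214.

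Kif26b, an atypical kinesin, and Tmcc3, an endoplasmic reticulum membrane protein, were among the 7 genes that rose at 0-3 days and fell at 10-13 weeks. Kif26b went from 10.3, 18.4 and 10.4 to 19.1, 31.2 and 15 CPM and from 13.9, 16.4 and 9.53 to 9.91, 12.8 and 6.48 CPM, a difference of 1.19 ± 0.15 (edgeR adjusted p = 0.000702). Tmcc3 went from 30.1, 24.3 and 17.2 to 46.6, 31.4 and 23.5 CPM and from 26.7, 21.7 and 15 to 18.9, 16 and 10.2 CPM, a difference of 0.98 ± 0.13 (edgeR adjusted p = 0.00111). For both genes all pairs moved in the direction of their age, while the groups overlapped at each age.

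The 2 genes that fell at 0-3 days and rose at 10-13 weeks were Fras1 and Rapgef4. Rapgef4 (chr3:58632476-58924038), a cyclic AMP-activated exchange factor for Rap GTPases, went from 8.03, 8.18 and 8.50 to 4.80, 6.03 and 5.35 CPM at 0-3 days and from 4.71, 6.32 and 4.27 to 7.91, 7.90 and 7.80 CPM at 10-13 weeks. High and normal glucose did not overlap at either age. The effects were -0.61 ± 0.14 and 0.64 ± 0.15, a difference of -1.25 ± 0.21 (edgeR adjusted p = 0.00618). Diras2, a small GTPase of the Ras family, had the lowest difference of effects among all called genes at -1.81 ± 0.30 (edgeR adjusted p = 0.00618), with levels between 0.625 and 5.89 CPM in the 12 libraries. It rose at 10-13 weeks (1.05, adjusted p = 0.01) and had an effect of -0.76 at 0-3 days (0.0629).

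The remaining genes with the most negative differences rose at 10-13 weeks and were not called at 0-3 days. Among the signalling genes these were Dusp4, a phosphatase that turns off MAP kinases (-0.75), Ppm1h, another protein phosphatase (-0.83), and Schip1, which binds the tumour suppressor merlin (-0.66). Ttc9 (-0.99), Syt13 of the synaptotagmin family (-0.67), Klhl30 of the kelch-like family (-0.67) and Ankh, which controls extracellular pyrophosphate and so mineralisation (-0.65), followed the same pattern. Of these 7, Schip1 was called in all 6 fits that left out a pair, the others in 0 to 2 of them. The receptors in this class were F2r, the thrombin receptor (-0.33), and Fzd1, a Wnt receptor (-0.34), and Cd55, a surface inhibitor of complement, had a difference of -0.47 with an older effect of 0.63 ± 0.070. Each of these 3 calls was kept in 2 of the 6 fits.

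**Figure D3:**
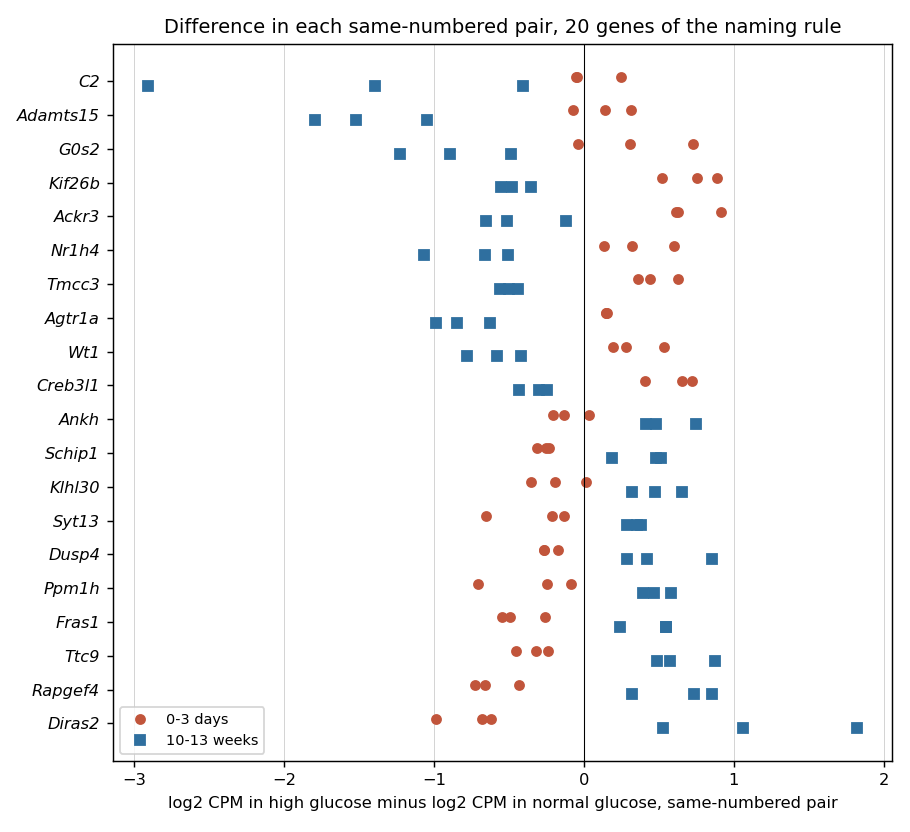
Log2 CPM in high minus normal glucose for each same-numbered pair at 0-3 days (red circles) and 10-13 weeks (blue squares), for the 10 genes with the largest and the 10 with the lowest differences of effects that the naming rule took. For each gene the 3 circles lie on one side of the 3 squares, which the naming rule required.

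Nr1h4, G0s2 and Zfp36l1 fell at 10-13 weeks. Nr1h4, the bile acid receptor, went from 11.3, 8.40 and 15.9 to 7.15, 5.88 and 7.57 CPM at 10-13 weeks and from 13.5, 12.3 and 11 to 20.6, 13.5 and 13.7 CPM at 0-3 days, a difference of 1.14 ± 0.19 (edgeR adjusted p = 0.00618). G0s2, an inhibitor of the lipase that breaks down stored triglyceride, went from 25.2, 13.9 and 38.5 to 18.0, 7.41 and 16.4 CPM at 10-13 weeks, a difference of 1.25 ± 0.20 (edgeR adjusted p = 0.00618). Zfp36l1, which speeds the decay of AU-rich messenger RNAs, fell by 0.45 at 10-13 weeks, a difference of 0.61 ± 0.090 (edgeR adjusted p = 0.00281). None of these 3 was called at 0-3 days.

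Wt1, a transcription factor of the epicardium, the outer layer of the heart from which many fibroblasts descend, went from 16, 13.1 and 10.0 to 11.9, 8.72 and 5.79 CPM at 10-13 weeks and from 15.9, 15.5 and 15.3 to 23.1, 18.9 and 17.5 CPM at 0-3 days. The older groups overlapped and the younger did not, although only the older effect was called (-0.58, edgeR adjusted p = 0.0106), and the difference was 0.93 ± 0.17 (0.0149). At 10-13 weeks the summed level of the 9 epicardial markers, most of it Aldh1a2, was 120 to 147.2 CPM in normal and 93.45 to 106.1 CPM in high glucose. At 0-3 days it was 100 to 122 against 101.3 to 133.9 CPM. Of the 9, Wt1 and Aldh1a2 (-0.41, edgeR adjusted p = 0.00187) were called as lower at 10-13 weeks (3.48% of all genes). The difference of effects was above 0 for 7 of the 9 and below 0 for 2, with Wt1 alone called (0.449% of all genes). Mbp, or myelin basic protein, was called as well (0.68 ± 0.13, edgeR adjusted p = 0.0146). The sum of the 7 glial markers, most of it Mbp itself, was 22.89 to 26.38 CPM in normal and 16.58 to 18.88 CPM in high glucose at 10-13 weeks. The part of such cells in these results was not tested, and in bulk samples fewer cells of a type and less RNA per cell cannot be told apart.

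The 2 largest differences belong to genes with few reads at 10-13 weeks. C2 (chr20:4536203-4542947), a complement component, had a difference of 3.29 ± 0.57 (edgeR adjusted p = 0.00911), with 119, 160 and 46.3 CPM in normal and 115, 154 and 55.0 CPM in high glucose at 0-3 days. At 10-13 weeks it had 2, 3 and 32 reads in the normal-glucose libraries in rising order and 0, 1 and 3 in the high-glucose libraries, so 1 library carried most of the older signal, and without that pair the adjusted p was 0.733. The gene model overlaps another entry of the same name and that of Cfb, so reads of the 3 may be shared. Ptges, the enzyme that makes prostaglandin E2, went from 4.08, 8.03 and 1.69 to 6.69, 18.4 and 4.27 CPM at 0-3 days and from 1.45, 1.12 and 0.625 to 0.271, 0.817 and 0.0912 CPM at 10-13 weeks, where the 3 high-glucose libraries held 22 reads in all. Its difference was 2.54 ± 0.44 (edgeR adjusted p = 0.00911).

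One further group was noticed after its values were seen. Tiparp, a called gene, is induced by the aryl hydrocarbon receptor, a ligand-activated transcription factor that binds DNA with its partner Arnt at a core of GCGTG, and it represses that receptor in turn. Ahrr encodes another repressor of the receptor, and Cyp1a1 and Cyp1b1 encode the monooxygenases that are its best-known targets. Upstream sequence from -160 to the base before the start site is shown for Tiparp, Ahrr and Cyp1b1. It was read from the RefSeq promoter table of the rat build GRCr8, and no sequence was read for Cyp1a1. The core is in capitals on either strand (CACGC where it lies on the other strand).
Tiparp, chr2:152063609-152063768, plus strand: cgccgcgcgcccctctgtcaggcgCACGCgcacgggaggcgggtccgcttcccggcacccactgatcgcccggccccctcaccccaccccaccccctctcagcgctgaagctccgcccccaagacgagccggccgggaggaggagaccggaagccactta
Ahrr, chr1:30822059-30822218, plus strand: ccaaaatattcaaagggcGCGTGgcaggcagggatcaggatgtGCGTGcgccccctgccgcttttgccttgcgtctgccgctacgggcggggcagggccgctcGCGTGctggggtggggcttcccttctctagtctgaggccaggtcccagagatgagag
Cyp1b1, chr6:21094405-21094564, plus strand: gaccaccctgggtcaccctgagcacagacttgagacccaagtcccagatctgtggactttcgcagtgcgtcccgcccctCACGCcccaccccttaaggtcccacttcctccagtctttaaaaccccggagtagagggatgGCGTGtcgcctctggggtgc
The first base of each match lies at -136 for Tiparp, at -142, -117 and -57 for Ahrr, and at -81 and -20 for Cyp1b1. The core is short and common: 29.7% of the 33469 promoters of the table, each 300 bases long, hold GCGTG on either strand. Of the called genes with a promoter in the table, 14 of 21 with a higher effect at 0-3 days and 14 of 27 with a lower effect hold it, so the match does not separate the directions, and a match is not a measured binding site.

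Tiparp (chr2:157316266-157341469 in Rnor_6.0) went from 20.0, 25.4 and 25.2 to 33.4, 52.9 and 49.7 CPM at 0-3 days and from 16, 19.5 and 14.5 to 15.4, 22.9 and 17.2 CPM at 10-13 weeks. The younger groups were apart and the older overlapped. Its effect of 0.93 ± 0.086 at 0-3 days had the smallest adjusted p of all genes at that age (edgeR, 1.42e-05), the older effect was 0.15 ± 0.094, and the difference was 0.78 ± 0.13 (0.00618).

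Cyp1a1 went from 0.444, 0.726 and 0.483 to 7.54, 6.4 and 5.82 CPM at 0-3 days, or from 35 to 440 reads over the 3 libraries, and from 1.86, 1.71 and 0.365 to 1.62, 0.981 and 0.684 CPM at 10-13 weeks. Cyp1b1 went from 814.8, 895.1 and 890 to 1529, 1503 and 1487 CPM at 0-3 days and from 770.2, 640.6 and 678.6 to 777.5, 643.2 and 730.1 CPM at 10-13 weeks. Both had separate groups at 0-3 days and overlapping groups at 10-13 weeks.

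Called at 0-3 days were Cyp1a1 (3.58 ± 0.50, edgeR adjusted p = 0.0103), Ahrr (0.98 ± 0.20, 0.0492) and Nqo1, a quinone reductase that this receptor and Nrf2 both induce (0.77 ± 0.13, 0.0278), but not Cyp1b1 (0.80 ± 0.21, 0.139). None of these 4 was called at 10-13 weeks, and none for the difference in the 24-library paired fit, where the adjusted p was 0.0956 for Cyp1a1, 0.409 for Cyp1b1, 0.331 for Ahrr and 0.216 for Nqo1. An alternative edgeR fit took the 12 libraries alone in pairs, with their own estimate of the spread, and kept 33 of the 62 calls. There Cyp1a1 (3.78, adjusted p = 0.00155), Cyp1b1 (0.76, 0.00103) and Nqo1 (0.66, 0.0433) passed and Ahrr did not (0.81, 0.0571). None of the 4 was called in any of the 6 paired edgeR fits that left out a pair. The lowest adjusted p in those fits was 0.205 for Cyp1a1, 0.497 for Cyp1b1, 0.354 for Ahrr and 0.228 for Nqo1. The receptor gene Ahr was not called at either age (-0.19 and 0.22), and its difference was -0.41 ± 0.096 (edgeR adjusted p = 0.0654).

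**Figure D4:**
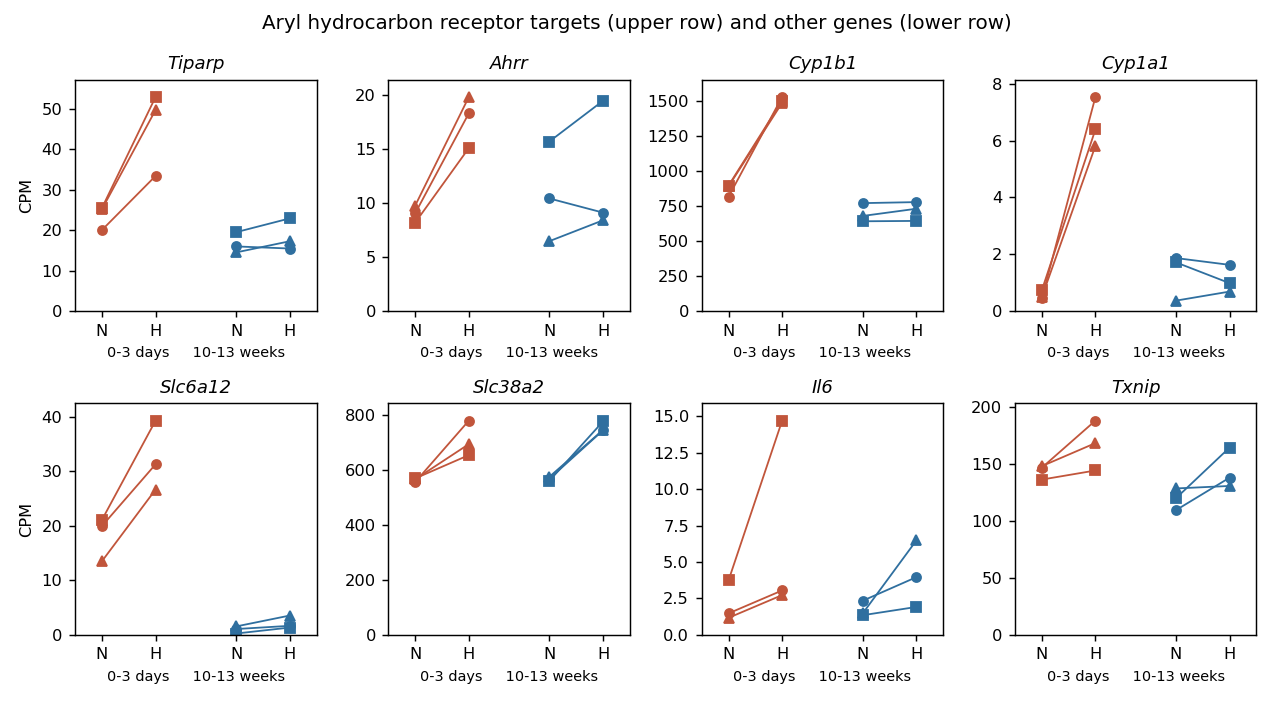
CPM in each of the 12 libraries, drawn as in the plot of called genes, for 4 genes of the aryl hydrocarbon receptor response (upper row) and 4 other genes (lower row). The upper row rises at 0-3 days and moves far less at 10-13 weeks, while Slc6a12, Slc38a2 and Il6 rise at both ages and Txnip is higher in high glucose in every pair.

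Genes with a response at both ages show what the comparison does not separate. Of 9 genes tested in the osmotic response list, 3 rose at 0-3 days (0.55% of all genes) and 4 at 10-13 weeks (4.24% of all genes). Slc6a12, the betaine transporter that cells use to gather osmolytes, went from 19.9, 21.1 and 13.5 to 31.2, 39.3 and 26.6 CPM at 0-3 days and from 1.04, 0.214 and 1.51 to 1.62, 1.31 and 3.51 CPM at 10-13 weeks. Its effects were 0.84 ± 0.12 (edgeR adjusted p = 0.00108) and 1.23 ± 0.25 (0.00608), on levels far apart. The amino acid transporter Slc38a2 (0.33 and 0.41) and the taurine transporter Slc6a6 (0.50 and 0.39) rose at both ages as well, with differences of -0.08 ± 0.073 and 0.11 ± 0.12.

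Il6, the inflammatory cytokine, rose at both ages too, by 1.54 ± 0.28 (edgeR adjusted p = 0.0122) and 1.22 ± 0.30 (0.0229), from levels of 1.16 to 3.73 CPM in normal glucose. The organic anion transporter gene Slco4a1 rose by 1.32 and 1.48, and Lyplal1 and the kinase gene Stk39 fell by 0.87 and 0.91 and by 0.63 and 0.50. These 4 were named after their values were seen. Spp1, or osteopontin, a matrix cytokine, rose by 0.27 and 0.32 with a difference of -0.05 ± 0.081.

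Glucose-sensing genes did not differ detectably between the ages. Txnip, the arrestin-like inhibitor of glucose uptake that is the best-known glucose-induced gene, went from 147, 136 and 148 to 188, 144 and 168 CPM at 0-3 days and from 110, 120 and 129 to 138, 165 and 131 CPM at 10-13 weeks. Each of the 6 pairs was higher in high glucose. The effects were 0.21 ± 0.066 (edgeR adjusted p = 0.136) and 0.27 ± 0.067 (0.0194), a difference of -0.06 ± 0.094 (0.865). Its relative Arrdc4 rose at 10-13 weeks (0.49, edgeR adjusted p = 0.00649) and had an effect of 0.23 at 0-3 days, a difference of -0.25 ± 0.14. Slc2a1, the main glucose transporter of these cells, had effects of 0.25 and 0.50, only the latter called (edgeR adjusted p = 0.0397), and a difference of -0.26 ± 0.18.

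Of the 26 gene lists examined, 2 held a gene called for the difference, Lum and Smtn, out of 562 distinct genes tested, or 0.356% against 0.449% of all genes. The other lists are described by their medians, against a median difference of -0.00147 over all genes, and no list was tested. Immediate early genes, which respond to growth factors and stress within minutes, had the lowest median difference (-0.34), with 20 of 25 below 0 and list medians of -0.02 at 0-3 days and 0.31 at 10-13 weeks. One of the 25, Nr4a2, rose at 10-13 weeks (0.63, edgeR adjusted p = 0.0344), near the 4.24% of all genes that rose, and none was called at 0-3 days. Of the TGF-beta pathway, 4 of 22 genes rose at 10-13 weeks (4.24% of all genes), Ctgf (0.32), Inhba (0.81), Id3 (0.36) and Skil (0.42), and Bambi, a decoy receptor of the pathway, fell (-0.98). At 0-3 days Skil alone was called (0.28), and the differences of Ctgf and Inhba, -0.31 ± 0.079 and -0.59 ± 0.14, missed the threshold (edgeR adjusted p = 0.1 and 0.129).

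In the other direction, the list for making cholesterol and fatty acids had 10 of its 31 genes called as lower in high glucose at 10-13 weeks (3.48% of all genes) and none called at 0-3 days. They included Srebf1, the transcription factor of lipid synthesis (-0.36, edgeR adjusted p = 0.00166), Dhcr7 of cholesterol synthesis (-0.42, 0.00107) and the desaturase gene Fads1 (-0.39, 0.00166). The median difference of the list was 0.08, with 27 of 31 above 0. Of 37 cell cycle genes, 10 fell at 10-13 weeks (3.48% of all genes), among them Mcm6 (-0.40) and Mcm2 (-0.28) of the replicative helicase, Rrm1, which makes deoxynucleotides (-0.29), and Tk1, which salvages thymidine (-0.40), while Ccnd1, or cyclin D1, rose (0.23). None was called at 0-3 days, and the median difference was 0.11, with 29 of 37 above 0. No gene of either list was called for the difference of effects, so their calls at 1 age do not show that the ages differed.

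**Figure D5:**
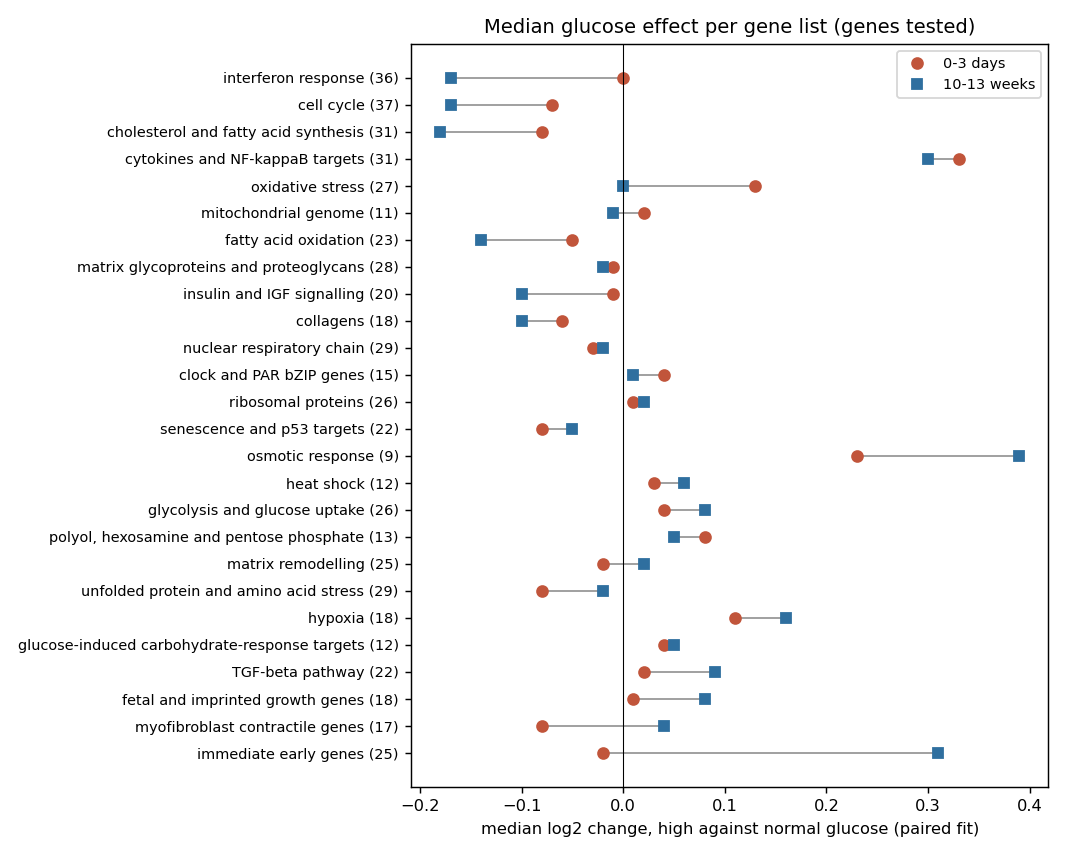
Median log2 fold change of high against normal glucose over the tested genes of each of 26 lists at 0-3 days (red circles) and 10-13 weeks (blue squares), with the number of genes in brackets and lists ordered by their median difference. The widest gap is that of the immediate early genes, from -0.02 to 0.31; no list was tested.

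The 62 genes were also read at the other ages of the series, 3-4 weeks and 20 months, whose libraries the difference did not use but whose spread the fit shares. At each of these ages 3 of the 62 were called for the glucose effect, against 0.391% of all genes at 3-4 weeks and 0.927% at 20 months, and all 3 belonged to the 34 with a lower effect at 0-3 days. At 20 months the sign matched that of 10-13 weeks for 47 genes (75.8%, against 63.8% of all genes) and that of 0-3 days for 22 (35.5%, against 61.5%). At 3-4 weeks these numbers were 37 (59.7%, against 64.2%) and 30 (48.4%, against 63.1%). Of the 62, 55 had opposite signs at 0-3 days and 10-13 weeks, against 38.4% of all genes. For those 55 a match with one age excludes a match with the other, so the shares of all genes are not a like background. Rock2 rose at 3-4 weeks (0.25, edgeR adjusted p = 0.0295) and had an effect of 0.19 at 20 months (0.0702), Fras1 rose at 20 months (0.39, 0.0132), and Creb3l1 stood at 0.01 and -0.02, uncalled. Tiparp was uncalled at both, with effects of -0.05 and 0.06.

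The 12 libraries held 18874548 to 23360754 counts, with 15188 to 15991 genes at a count above 0 and 3.02% to 3.6% of counts from the mitochondrial genome. Fibroblast markers led in all of them, with summed levels of 27500 to 30250 CPM at 0-3 days and 31030 to 40460 CPM at 10-13 weeks. The cultures of the youngest rats also carried RNA of other cells: 19 cardiomyocyte markers summed to 2391 to 2753 CPM at 0-3 days and to 81.98 to 106.6 CPM at 10-13 weeks, where Myh6, Myh7, Myl2 and Myl7 had no count. Macrophage and leukocyte markers summed to 777.5 to 1023 CPM at 0-3 days and to 95.24 to 182.6 CPM at 10-13 weeks. Of the 19 macrophage and leukocyte markers tested, 1 was called at 10-13 weeks, near the 4.24% of all genes that rose. It was C1qc (2.38, edgeR adjusted p = 0.0322), on 4 reads in normal and 23 in high glucose over 3 libraries each. The summed level of these markers at 10-13 weeks averaged 128.8 CPM in normal and 127 CPM in high glucose. The part that these cells have in the difference between the ages was not tested.

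Of the 62 genes, 13 were called in each of the 6 fits that left out 1 pair, 5 in none and 29 in at least 4, and the number called ranged from 18 to 82. The p-values of the paired fit measure the spread of the differences within same-numbered pairs, estimated over all 24 libraries. They hold for these libraries alone, since nothing in the labels says whether a number stands for a separate animal, litter or culture. Age is shared by all libraries of a group.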

How the data were processed

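Gene expression was measured in 24 libraries of rat cardiac fibroblasts, made with the VAHTS Universal V6 RNA-seq kit per the labels' protocols. The deposited table holds raw counts and FPKM values per gene, which the authors made from reads on Rnor_6.0; HISAT2 2.0.4, StringTie 1.3.0 and edgeR are named per the submitters' processing notes, and strand setting and annotation are not given in the sources used here. The authors' FPKM values were not tested. Of 30957 genes 11647 had no count, and 13806 passed filterByExpr (minimum count 10, total 15). Counts were fitted over all 24 libraries with TMM factors and edgeR 4.0.16 (robust quasi-likelihood, R 4.3.3), first with 8 group means and then with the replicate number as a pair within each age; SE is the log2 value over the root of F. The pairing was accepted because libraries of one number and age deviated together in every case (correlations over 0.1, 0.2 to 0.67 over all ages), a hint from the data that the labels do not state. Chi-square per degree of freedom between libraries of a group was 9.39 to 28.2, so no library was a duplicate. Alternatives used DESeq2 1.42.0, limma 3.58.1 (consensus pair correlation 0.55), RLE factors, no filter, the 12 libraries alone and leaving out libraries; the scripts were tested on simulated counts. CPM in the text is TMM-scaled; marker sums and their listed genes use plain CPM. Named genes were up to 10 per direction, ranked by size among called genes. These had a mean log2 CPM of at least 1 and an annotated symbol, and ran C2 through Creb3l1 and Diras2 through Ankh. The rule also required the pair differences at one age to lie all above or all below those at the other. Up to 4 genes per list were added. Other genes are said to be chosen after their values were seen, or are called genes given for their role. The comparison, members and lists were chosen with earlier results of these data known. Promoter sequences are RefSeq's on GRCr8, matched for 48 of the 62 called genes; no Rnor_6.0 genome was used here.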

Additional observations from a re-analysis of the deposited data

Results flagged for a closer look

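The count of 62 genes called for a glucose effect that differed between 0-3 days and 10-13 weeks is listed because the difference itself was tested, with libraries of the same number paired. It was 0 without pairs, 2 in limma with the pair as a random effect and 18 without pair 3 of 10-13 weeks, where 15 of the 62 stayed called. For 13 of these genes the test of the difference passed in all 6 fits that left out a pair. The difference of effects (log2, 0-3 days minus 10-13 weeks) was 1.62 for Adamts15, 1.19 for Kif26b, 1.16 for Ackr3, 0.98 for Agtr1a, 0.98 for Tmcc3, 0.93 for Creb3l1, 0.61 for Zfp36l1, 0.57 for Arhgap29 and 0.52 for Jak2. It was -1.81 for Diras2, -0.89 for Fras1, -0.66 for Schip1 and -0.44 for Rock2.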

How the results depend on the processing

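The numbers of genes called for the difference, for the effect at 0-3 days and for the effect at 10-13 weeks were 0, 0 and 1 in the fit of group means. With the replicate number as a block they were 62, 148 and 1067. The 12 libraries alone gave 0, 2 and 1 without the block and 44, 67 and 657 with it; DESeq2 gave 0, 5 and 38; leaving out the 3-4 weeks libraries numbered 1 gave 0, 1 and 3. Without 1 library and without the block they ranged over 0 throughout, 0 throughout and 0 to 2. With the block and without 1 pair they ranged from 18 to 82, from 16 to 281 and from 151 to 1422: 80, 281 and 1422 without 0-3 days pair 1, 29, 16 and 1014 without its pair 2, 38, 29 and 936 without its pair 3, 28, 121 and 392 without 10-13 weeks pair 1, 82, 135 and 707 without its pair 2, and 18, 164 and 151 without its pair 3. Alternatives chosen after seeing the data, each with the pairs, gave 89, 96 and 692 with DESeq2, 2, 82 and 706 with limma and the pair as a random effect, 60, 147 and 1098 with RLE factors, 73, 134 and 1066 without the 3-4 weeks libraries numbered 1, and 63, 133 and 898 without the filter. All 62 genes kept the sign of their difference in every setting run. They were chosen by that difference in the same libraries, so the kept signs add little as a check. Of the 62, 33 stayed called with the 12 libraries alone in pairs, 56 with DESeq2 in pairs and 2 with limma. The cause of these shifts was not tested. With 3 libraries per group, differences of genes with few reads, such as C2, Ptges and Cyp1a1 at 10-13 weeks, are limited by depth.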
